A study of Mus musculus with 6 samples.

Results

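Von Willebrand factor (Vwf) transcripts were used to divide the haematopoietic stem cells of mouse bone marrow into a Vwf-positive and a Vwf-negative class, and the classes were compared within each of 6 single-cell libraries. A barcode was taken as a stem cell if it held at least 5000 unique molecular identifiers (UMIs, counted RNA molecules), at most 10% of them mitochondrial, at least 1 UMI of the stem cell transcription factor Hlf and at least 2 of Hlf, Mecom and Procr together, no more than 2 UMIs of Pf4, a platelet chemokine, or of Car1, an erythroid carbonic anhydrase, and no UMI of the lymphoid gene Dntt. The members were thus selected on measured UMIs of these genes and split on Vwf, and none of those values is tested between the classes; Vwf itself is compared only between the genotypes. The limits took in 5497 of the 48277 deposited barcodes, of which 140 had at least 1 Vwf UMI and 5357 had 0. The libraries came from sorted bone marrow of 3 wild-type (WT) and 3 Txnip-KO samples, the latter from mice without a functional gene for thioredoxin-interacting protein. The labels state neither strain, age, sex, sort markers and the make of the knockout allele, nor whether each sample came from a separate animal. The spread between samples that p-values measure may thus be technical. For edgeR this spread is largely shared by all genes: its weight, the prior degrees of freedom, was 157.1 in the Vwf contrast. In the interaction with genotype and within a genotype it was infinite. A gene that varies more between samples than most can thus get a small p. By sample, 12, 23 and 10 Vwf-positive among 679, 719 and 584 stem cells came from WT 1 to 3, and 37, 37 and 21 among 1167, 1502 and 846 from Txnip-KO 1 to 3. Their UMIs summed to 99020 to 457626 per sample, against 7701858 to 14566717 for the Vwf-negative cells, so the Vwf-positive side limited the precision of each comparison. No stem cell barcode was shared between libraries (0, against 227 among all barcodes). Against markers of the label, Mllt3, Pdzk1ip1 and Ifitm1 were detected in 36.72%, 44.5% and 91.06% of the Vwf-negative cells, Kit in 89.85% and Ly6a in 35.99%. Other stem cell markers were rare there: Fgd5 was in 7.22%, Ctnnal1 in 4.91%, Slamf1 in 4.29%, Tek in 4.07% and Hoxb5 in 3.02%. Cd34, which the most primitive mouse stem cells lack and multipotent progenitors carry, was detected in 92.33% of the Vwf-negative cells. Stem cell is therefore used below as the name of the gate, and its purity was not tested.

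Von Willebrand factor is a large adhesive glycoprotein that megakaryocytes and endothelial cells store in granules and release to capture platelets at sites of injury. A part of mouse haematopoietic stem cells also transcribes the gene. Such cells are known for a bias towards platelets and myeloid cells and for a place at the top of the stem cell hierarchy; Vwf-negative stem cells are known to give more lymphoid progeny. Txnip is an alpha-arrestin that binds thioredoxin, restrains glucose uptake and is known to help keep stem cells quiescent. The comparison asks which other transcripts separate the classes, and whether the separation differs without Txnip.

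Promoter sequences of genes that led the Vwf-positive class are shown here because their transcripts rose together with Vwf in the same cells. Each runs over the 250 bases before an annotated start, forward strand, from RefSeq on GRCm38.p6: Cavin2, a coat protein of membrane caveolae that platelets carry, at chr1:51288876-51289125; Slamf1 (CD150), the surface receptor used to sort stem cells, at chr1:171766882-171767131; and the downstream of the annotated starts of Aldh1a1, a retinaldehyde dehydrogenase, at chr19:20601718-20601967.
Cavin2: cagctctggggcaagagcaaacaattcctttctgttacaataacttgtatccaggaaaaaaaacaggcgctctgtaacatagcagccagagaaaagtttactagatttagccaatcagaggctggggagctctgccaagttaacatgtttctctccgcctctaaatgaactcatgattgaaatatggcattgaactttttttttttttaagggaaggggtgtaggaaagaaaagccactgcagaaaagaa
Slamf1: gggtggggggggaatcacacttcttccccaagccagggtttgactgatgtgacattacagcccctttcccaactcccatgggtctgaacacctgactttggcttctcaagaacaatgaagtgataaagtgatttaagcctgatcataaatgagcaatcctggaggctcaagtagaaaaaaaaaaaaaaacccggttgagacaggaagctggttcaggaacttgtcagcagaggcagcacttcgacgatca
Aldh1a1: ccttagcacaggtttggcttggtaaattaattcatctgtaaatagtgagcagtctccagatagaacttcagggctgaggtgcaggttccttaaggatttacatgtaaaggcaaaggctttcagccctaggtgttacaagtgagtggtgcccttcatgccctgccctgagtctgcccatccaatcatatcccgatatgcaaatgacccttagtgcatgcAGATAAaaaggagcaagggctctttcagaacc
Capitals mark the letters of a GATA motif, AGATAA, whose first, farthest base lies 32 bases before the Aldh1a1 start; neither of the other 2 windows holds it. The shares that follow count the first listed start of each gene only. The Aldh1a1 motif above lies before another start and is not among them. On either strand, AGATAA occurred in 4 of 96 genes called higher in Vwf-positive cells (4.2%), 16 of 157 called lower (10.2%), 5.8% of 9039 tested genes and 10.3% of all 27025 genes with a promoter in the RefSeq table. The ETS motif CCGGAAG occurred in 4.2%, 8.9%, 15.0% and 7.1% of the same 4 sets, and the RUNX motif TGTGGTT in 5.2%, 4.5%, 3.3% and 4.5%. Windows of Mllt3, Mmrn1, Pdzk1ip1 and the upstream start of Aldh1a1 were searched too and held none of the motifs. These are counts of letters and no measure of binding.

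Most Vwf-positive cells were positive by 1 molecule. Of the 140, 123 held 1 Vwf UMI, 13 held 2 and 4 held at least 3, giving 15, 23 and 12 Vwf UMIs in WT 1 to 3 and 42, 48 and 24 in Txnip-KO 1 to 3. A Vwf-negative cell is a cell in which no Vwf molecule was captured, at this depth. Vwf was found in 2.55% of stem cells (95% exact binomial interval 2.15 to 2.998; all intervals cover counting error only), with a median of 8626.5 to 11922 UMIs per cell across samples. For a background share, 15 of 2356 natural killer cells (0.637%, 0.357 to 1.05, at a median of 6245 to 7678 UMIs) and 2 of 876 B cells (0.228%) held a Vwf UMI. These were not all single molecules: 3 natural killer cells of WT 2 held 13 Vwf UMIs together. Thinned to 5000 UMIs per cell, the shares were 1.18% in stem cells (0.914 to 1.51), 0.297% in natural killer cells (0.12 to 0.611) and 0 of 876 in B cells (exact upper limit 0.42%). Pooled over samples, the stem cell share lay above the background share at matched depth with intervals that did not overlap. In Txnip-KO 2 the classes of cells were alike: 7 of 253 natural killer cells (2.767%) held Vwf as counted, against 2.463% of stem cells. Thinned, these were 3 of 253 and 19 of 1502. In each other sample the stem cell share was the higher. How many of the 140 cells owe their UMI to background was not tested. Cells left out of the gate for 3 or more Pf4 UMIs held Vwf in 138 of 446 cases (30.9%), and barcodes with at least 10 Pf4 UMIs in 498 of 987 (50.5%). At the edge of the gate, 18 of 1003 members whose Hlf, Mecom and Procr UMIs summed to exactly 2 held Vwf (1.79%), against 17 of 1438 barcodes just outside with a single Hlf UMI (1.18%).

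Depth differed between the classes in both directions. Vwf-positive cells had the higher median UMIs in 4 of 6 samples, as in Txnip-KO 2 (10851 against 8585), and the lower in others, as in WT 3 (9834 against 12072). Median UMIs per cell averaged 10913 ± 2047 and 10543 ± 1595 (SD over 6 samples, exact sign-flip test over the 6 samples, two-sided p = 0.594), median genes 3211 and 3165 (exact p = 0.75), and mitochondrial share 4.04% and 3.84% (exact p = 0.0938). The smallest p that 6 pairs allow is 0.0312. Barcodes that Scrublet marked as doublets, droplets with RNA of more than 1 cell, made up 16 of 140 Vwf-positive cells (11.4%) and 338 of 5357 Vwf-negative cells (6.31%). In Txnip-KO 2 they were 21.62% of Vwf-positive and 6.48% of Vwf-negative cells, while the Vwf-positive cells of WT 1 and WT 3 held 0. Among the Vwf-positive barcodes, 6 held 55 to 107 UMIs of natural killer and T cell markers; they were 0 in WT and 6 in Txnip-KO, and 6 of 6 were marked as doublets. Vwf-negative barcodes with at least 10 such UMIs numbered 161 (3.01%).

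The contrast of the classes covered 11351 genes, each cell class summed per sample and compared within samples, and 320 genes differed (2.82%; edgeR quasi-likelihood test with a term for each sample, Benjamini-Hochberg adjusted p under 0.05). Of these, 131 were higher in Vwf-positive cells (1.15%) and 189 lower (1.67%), around a median log2 fold change of -0.04 over all tested genes. The called genes lay on the same side in 6 of 6 samples in 206 of 320 cases (64.4%), against 8.53% of all tested genes. Levels below are CPM, UMIs of the summed cells relative to their total, scaled by the trimmed mean of M-values (TMM), fold changes are log2, and SE is the standard error. The count rested on the test: DESeq2's Wald test called 131 (96 higher, 35 lower), limma voom 341 (298 higher, 43 lower) and edgeR with DESeq2 size factors 274 (164 higher, 110 lower), so the balance of higher to lower turned with the method. A gene was tested if at least 3 of the 12 sums reached 2.45 CPM. Of the genes called higher, 22 passed this filter only with the help of Vwf-positive sums, where they are high, and of those called lower, 14 only with Vwf-negative sums; counts of called members below are also given without the filter where such genes enter a list. Of the 131 genes called higher, 89 remained called by the Wald test and 94 by voom; of the 189 called lower, 35 and 43.

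Genes of stem cell identity were higher in the Vwf-positive class. Among 25 tested members of this list, 9 rose and 0 fell, with a median log2 fold change of 0.57, where 1.15% of all tested genes rose and their median was -0.04. Slamf1 stood at 50.3, 15.7 and 9.86 CPM in Vwf-positive cells of WT 1 to 3 and 24.8, 15.5 and 9.56 in Txnip-KO 1 to 3, against 2.75 to 5.75 in the Vwf-negative sums. The classes did not overlap, although 2 of these values rest on 1 and 2 UMIs, and the log2 fold change was 2.23 (SE 0.37, adjusted p = 3.84e-06 by edgeR). Mllt3 (AF9), a chromatin reader that sustains stem cell self-renewal, was at 89.5, 151 and 266 CPM in WT and 151, 124 and 143 in Txnip-KO, with 40.8 to 62.9 in Vwf-negative cells. Its rise of 1.41 (SE 0.13, adjusted p = 5.36e-17 by edgeR) appeared in 6 of 6 samples, and it was called under each of the 18 alternatives tried. Pdzk1ip1 (MAP17), a membrane adaptor of quiescent stem cells, read 95.1, 88.2 and 306 CPM in WT and 111, 99.3 and 186 in Txnip-KO against 55.4 to 97.9. Its log2 fold change was 0.90, with WT 3 highest. The stem cell factor Tcf15 (1.67), the transglutaminase Tgm2 (1.68), and, below them, Mycn (0.62), Ifitm1 (0.38) and Ifitm3 (0.35) rose as well. The Ifitm calls and that of Mycn leaned on single samples: without WT 3, Ifitm1 (0.19) and Ifitm3 (0.20) were not called, and Mycn was not without WT 1 (0.46) or Txnip-KO 2 (0.60). Without WT 3 the list had 6 higher members. Of the genes that set the gate, described without a test because they chose the cells, Mecom was at 106 and 66.0 CPM, Procr at 49.1 and 28.4, and Hlf at 481 and 444.

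**Figure D1:**
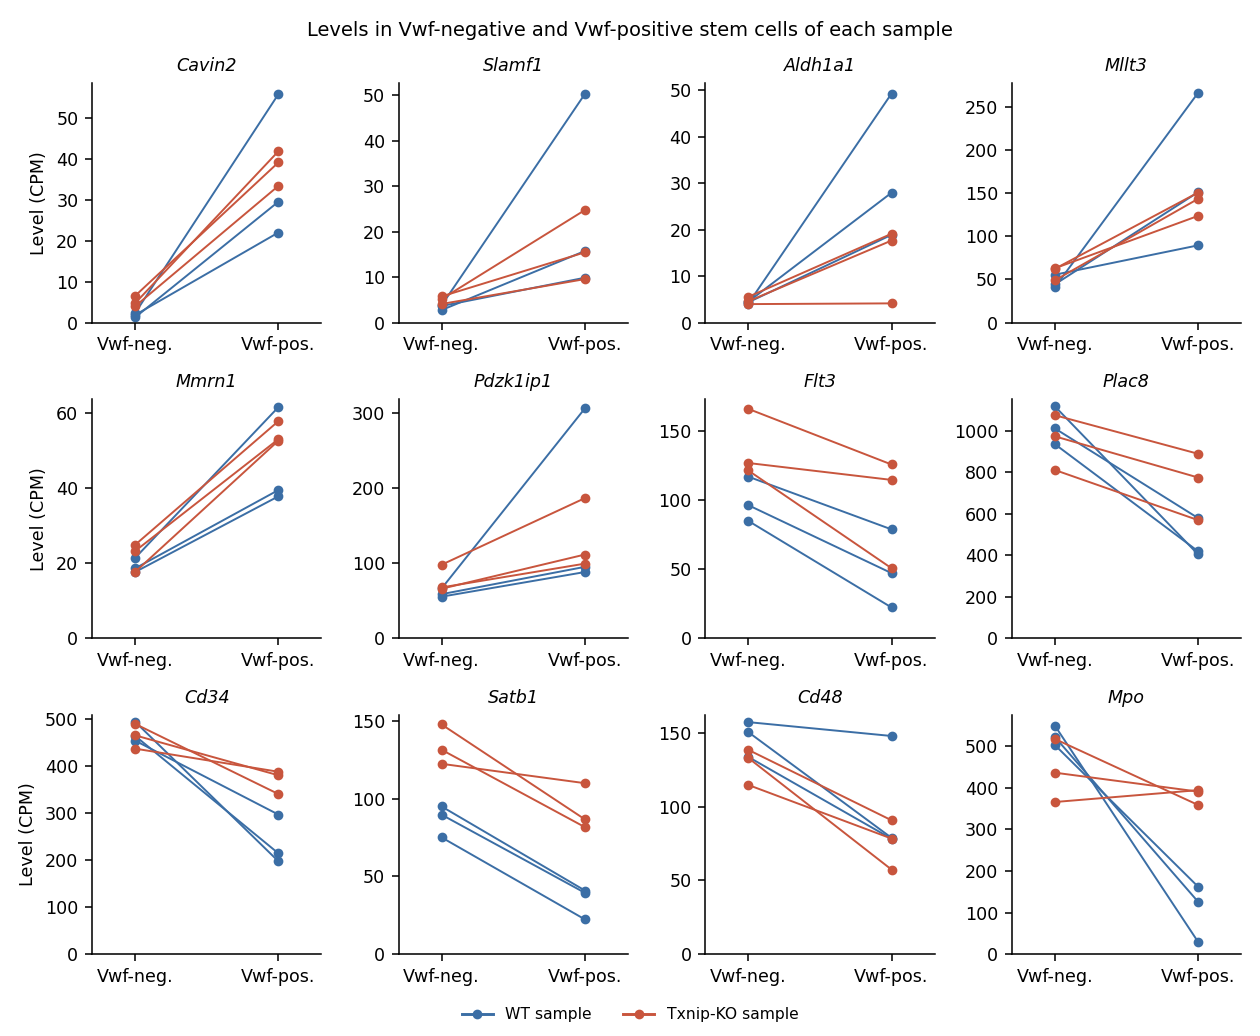
Summed level in CPM (linear axis from 0) of 12 genes in the Vwf-negative and Vwf-positive cells of each sample, 1 line per sample, WT blue and Txnip-KO red. Lines for Cavin2, Slamf1, Aldh1a1, Mllt3, Mmrn1 and Pdzk1ip1 climb in 6 of 6 samples, and those for Flt3, Plac8, Cd34, Satb1 and Cd48 descend in 6 of 6; Mpo descends in 5.

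Genes reported as higher in stem cells of old mice rose in 9 of 27 cases and fell in 1, Vldlr, when the test was run without a filter on low counts (median 1.18). With the filter 9 of 19 rose and 0 fell, but 3 of the 9, Runx1t1, Ehd3 and Clu, passed it only with Vwf-positive sums. Aldh1a1 reached 28.0, 18.9 and 49.3 CPM in Vwf-positive cells of WT 1 to 3 and 4.13, 17.7 and 19.1 in Txnip-KO 1 to 3, against 3.97 to 5.53 in Vwf-negative cells. Only in Txnip-KO 1, on 2 UMIs, did it lie within the Vwf-negative range; the fold change was 2.01 (SE 0.39, adjusted p = 0.000144 by edgeR). Sult1a1, a sulfotransferase, rose by 1.70 with 30.1 against 9.86 CPM. Gda, a guanine deaminase, rose by 1.87 and Art4, an ADP-ribosyltransferase family member of red cell membranes, by 1.32, the latter not called without Txnip-KO 1 (1.08). Ehd3, a membrane recycling protein, gained 2.33. Runx1t1, a transcriptional corepressor, was at 10.3 CPM against 0.802 (log2 fold change 3.32), on 6.43% of Vwf-positive and 0.73% of Vwf-negative cells; without the filter it was called at 3.28 (adjusted p = 6.18e-05 by edgeR). Slamf1 and Mmrn1 belong to this list too. The ages of these mice are not stated in the labels, and age was not compared.

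Platelet and megakaryocyte genes rose in part. In the granule and cytoskeleton list 5 of 20 members rose and 0 fell without a filter on low counts (median 0.11). With the filter 7 of 16 rose and 0 fell, of which Timp3 and Clu passed it only with Vwf-positive sums. Of the 7, Cavin2 rose most, by 3.30 (SE 0.32, adjusted p = 2.05e-16 by edgeR). It was at 55.9, 22 and 29.6 CPM in WT and 39.2, 41.9 and 33.5 in Txnip-KO, against 1.26 to 6.52 in Vwf-negative cells, and 20% of Vwf-positive cells held it against 2.54%. Even in the Vwf-negative class it was concentrated: the top 1% of cells, 54 in number, held 65.5% of its UMIs. Mmrn1, multimerin, an adhesive granule protein, was at 61.5, 37.8 and 39.5 CPM in WT and 57.8, 53.0 and 52.6 in Txnip-KO. Vwf-negative cells had 17.6 to 24.9, with no overlap. The rise was 1.27 (SE 0.20, adjusted p = 1.01e-06 by edgeR). Gng11, a G protein gamma subunit abundant in platelets, rose by 0.74 and was found in 78.6% of Vwf-positive and 57.7% of Vwf-negative cells. Timp3, an inhibitor of metalloproteinases (2.71), and Clu, clusterin (2.02), rose from levels of 1.02 and 1.83 CPM, and were called without the filter at 2.67 and 1.97. Single samples decided the smaller calls: Timp3 was not called without WT 3 (2.34) or Txnip-KO 2 (2.60), Clu without WT 1 (1.99), WT 2 (2.01), WT 3 (1.85), Txnip-KO 1 (2.20) or Txnip-KO 3 (1.70), Rgs18 (0.34) without WT 2 (0.30), Txnip-KO 1 (0.37) or Txnip-KO 3 (0.29), and Rap1b (0.41) without WT 1 (0.29), Txnip-KO 1 (0.32) or Txnip-KO 2 (0.37). With Txnip-KO 1 left out, 4 members of the list were called.

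Of 17 tested platelet receptors, 2 rose and 0 fell (median 0.35). Cd9, a tetraspanin, rose by 0.70 (128 against 80.5 CPM). The glycoproteins of the Vwf receptor complex were scarce. Gp9 was in 27.9% of Vwf-positive and 15.8% of Vwf-negative cells, at 25.3 and 17.4 CPM (log2 fold change 0.68, adjusted p = 0.153 by edgeR). Gp5 was in 10.71% and 6.46% of cells. Gp1bb gave 5 UMIs in the Vwf-positive and 31 in the Vwf-negative class, in 3.57% and 0.54% of cells. Gp1ba gave 0 and 55 UMIs, the latter in 0.99% of cells, too few to tell the classes apart. The integrin Itga2b (CD41) was at 54.4 and 45.9 CPM (0.27, adjusted p = 0.552 by edgeR). Pf4, capped by the gate, was at 28.4 and 19.3 CPM. Restricting the gate to cells without Pf4 left 76 of the 129 testable higher genes called and 135 of the 189 lower ones, Cavin2, Slamf1, Mllt3 and Mmrn1 among the former. Among the higher genes that lost their call there were Aldh1a1, Tcf15, Gata2, Ehd3, Art4, Clu, Rgs18, Bex4, Ecscr, Adcy6 and Car2.

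Of 17 factors shared by megakaryocytes and erythroid cells, 2 rose and 0 fell (median 0.24). Among them was Gata2, a factor needed for stem cell maintenance (160 against 119 CPM, 0.47), which was not called without Txnip-KO 2 (0.41). Gata1, the master factor of both lineages, was at 12.1 and 6.37 CPM (0.94, adjusted p = 0.236 by edgeR), and Gfi1b at 32.5 and 17.7 (0.77, adjusted p = 0.0745 by edgeR). In the erythroid list 1 of 9 rose, Car2 (0.29), a carbonic anhydrase, and this call was lost without WT 2 (0.25).

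Further genes with large rises lay outside those lists. Clec1a, a C-type lectin receptor, rose by 2.33 (18.4 against 3.82 CPM), Lhcgr, the luteinizing hormone receptor, by 1.70, Slfn2, a Schlafen gene of lymphocyte quiescence, by 1.57, Bex4 by 1.49, Ecscr, a surface protein of endothelial cells, by 1.38, and Adcy6, an adenylyl cyclase, by 1.29. Slfn2 was not called without WT 3 (0.98), Ecscr without WT 2 (1.13) or Txnip-KO 2 (1.47), and Adcy6 without WT 2 (1.24), Txnip-KO 1 (1.29) or Txnip-KO 2 (1.14). Apoe, apolipoprotein E, was the most abundant of the named genes that rose strongly, at 547 against 317 CPM (0.78, SE 0.09, adjusted p = 1.2e-12 by edgeR). Of 17 genes of insulin and FoxO signalling 3 rose: Cited2, a coactivator needed for stem cell maintenance (0.54), Tsc22d3, a glucocorticoid target (0.52), and Pik3r1 (0.38). Tsc22d3 was not called without Txnip-KO 1 (0.40), nor Pik3r1 without WT 2 (0.34), WT 3 (0.30), Txnip-KO 1 (0.43) or Txnip-KO 2 (0.39). Among Hox, Meis and Pbx genes 2 of 14 rose, Pbx3 (0.92) among them, and among 24 receptors for niche signals 2 rose, the betaglycan gene Tgfbr3 (1.23) among them, and 1, Flt3, fell. Pbx3 was not called without WT 1 (0.83), Txnip-KO 2 (0.69) or Txnip-KO 3 (0.84), nor Tgfbr3 without Txnip-KO 1 (1.10) or Txnip-KO 2 (1.04). The interferon list had 2 of 22 higher, Ifitm1 and Ifitm3, and 1 lower, Ifi27l2a (-0.96), which was not called with WT 1, WT 2, WT 3, Txnip-KO 2 or Txnip-KO 3 left out (-0.80 to -1.01). The list of Txnip, its arrestin relatives and MondoA targets had 0 of 17 called. Txnip itself was at 203 and 158 CPM (0.29, adjusted p = 0.29 by edgeR), a mean that takes in the Txnip-KO samples. In WT 1 to 3, scaled within each class, it was at 522, 323 and 540 CPM in Vwf-positive cells. In the Vwf-negative cells of WT it was at 364, 224 and 318. Each scale covers only the genes tested in that class, fewer in Vwf-positive cells, so these CPM are not comparable between the classes. As UMIs, Txnip gave 84, 93 and 44 of 180086, 320333 and 99020 in the Vwf-positive cells of WT 1 to 3. In their Vwf-negative cells it gave 3229, 1984 and 2313 of 9112917, 9140595 and 7701858. No test of Txnip within WT alone is given here.

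**Figure D2:**
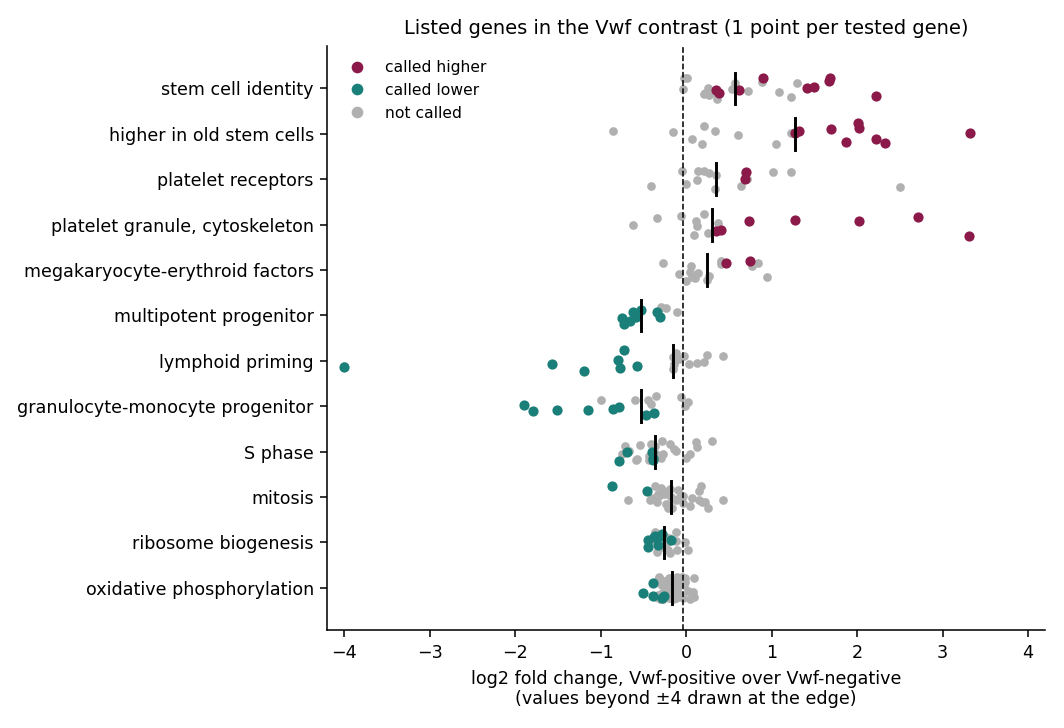
Log2 fold change of each tested gene, Vwf-positive over Vwf-negative, in 12 gene lists; red points were called higher, teal lower, grey not called, the black tick is the list's median and the dashed line the median of all tested genes. Stem cell and old stem cell genes lie mostly to the right (medians 0.57 and 1.27 over the genes that passed the filter, 0.54 and 1.18 without it) and multipotent and granulocyte-monocyte progenitor genes to the left (medians -0.53 and -0.53).

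Genes of multipotent progenitors, the first descendants of stem cells, were lower in Vwf-positive cells: 8 of 11 fell, 0 rose and 11 of 11 had a negative value (median -0.53), where 1.67% of all tested genes fell. Plac8 was at 419, 579 and 404 CPM in Vwf-positive cells of WT 1 to 3 and 570, 775 and 889 in Txnip-KO 1 to 3, where the Vwf-negative cells of the same samples had 811 to 1118. It was lower in 6 of 6 samples, although the ranges overlapped, and the log2 fold change was -0.66 (SE 0.07, adjusted p = 5.14e-13 by edgeR). Cd34, a sialomucin gained on leaving the long-term stem cell state, was at 296, 214 and 197 CPM in WT and 380, 340 and 387 in Txnip-KO, against 436 to 493, without overlap (-0.58, SE 0.09, adjusted p = 2.13e-07 by edgeR). Flt3, the cytokine receptor that marks lymphoid-primed progenitors, read 22.4, 47.2 and 78.9 CPM in WT and 126, 50.8 and 115 in Txnip-KO, against 85.1 to 166; it was lower in 6 of 6 samples, and the log2 fold change was -0.73. Cd48 (-0.63), whose absence helps define stem cells, Cd53 (-0.75), Emb (-0.53), Ramp1 (-0.35) and Cdk6 (-0.31), a kinase that speeds exit from quiescence, made up the rest. Cd48 was not called without Txnip-KO 2 (-0.48), nor Cdk6 without WT 3 (-0.23) or Txnip-KO 3 (-0.28). By the DESeq2 Wald test 4 of the 11 were called and by voom 2.

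Lymphoid priming genes fell in 7 of 19 cases and rose in 0 (median -0.15), and in 7 of 22 without the filter; Ccr9 passed it only with Vwf-negative sums. Satb1, a chromatin organizer of lymphoid fate, was at 22.4, 40.9 and 39.5 CPM in WT and 86.7, 81.7 and 110 in Txnip-KO against 75.1 to 148, and fell by 0.78 (adjusted p = 6.2e-05 by edgeR), with lower levels in 6 of 6 samples. Ighm, the mu heavy chain locus that is transcribed early in lymphoid priming, fell by 1.57. Ccr9, the thymus-homing receptor, gave 0 UMIs in the 140 cells and 11.6 CPM in Vwf-negative cells, at least 6.60-fold lower with a floor of 3 counts over the group, but the top 1% of Vwf-negative cells held 79.5% of its UMIs there. Il7r (-1.20) and Cd52 (-0.57) were also among the 7, as was Flt3. Il7r lost its call without WT 1 (-0.99), WT 3 (-1.06), Txnip-KO 1 (-1.26), Txnip-KO 2 (-1.04) or Txnip-KO 3 (-1.03), and Cd52 without WT 2 (-0.37).

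In the granulocyte-monocyte progenitor list 8 of 16 genes fell and 0 rose (median -0.53), and 9 of 16 fell without the filter; Elane passed it only with Vwf-negative sums. Mpo, myeloperoxidase, was at 244 against 482 CPM (-0.78), Ctsg, cathepsin G, at 139 against 278 (-0.85), the chaperone Calr at 389 against 564 (-0.47) and Prtn3, proteinase 3, at 500 against 645 (-0.38). Clec12a fell by 1.8 and Irf8, a factor of monocytes and dendritic cells, by -1.15. The falls of Mpo and Ctsg were those of WT, as given with the genotypes below. None of the 16 was called by the DESeq2 Wald test (0) and 1 by limma voom. Wfdc17 fell by 1.28 in 6 of 6 samples, and Lpcat2, a lysolipid acyltransferase (-1.38), Cst7, the protease inhibitor cystatin F (-1.35), Atp8b4 (-1.07) and Nt5dc2 (-1.03) were lower in 6 of 6 as well. Cst7 lost its call without Txnip-KO 1 (-1.21), Atp8b4 without Txnip-KO 1 (-0.85), Lpcat2 without WT 1 (-1.26), WT 3 (-1.28), Txnip-KO 2 (-1.03) or Txnip-KO 3 (-1.34), and Nt5dc2 without WT 2 (-0.96), Txnip-KO 1 (-0.99), Txnip-KO 2 (-1.11) or Txnip-KO 3 (-0.91).

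The share of cells with a transcript was read beside the summed level of the called genes. It comes from the counts that gave the calls, pooled over samples and not thinned. Agreement is therefore no separate support, and the matching count over all tested genes was not taken. For 131 of 131 genes called higher, a greater share of Vwf-positive than of Vwf-negative cells held the transcript, and for 167 of 189 called lower, a smaller share. Mllt3 was in 51.4% and 36.7% of cells, Slamf1 in 16.4% and 4.29%, Mmrn1 in 41.4% and 17.6%, Flt3 in 40.7% and 60.2%, and Plac8 in 77.1% and 93.2%. Exceptions among the latter were S100a9 and Camp, neutrophil genes described with the mature cells.

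**Figure D3:**
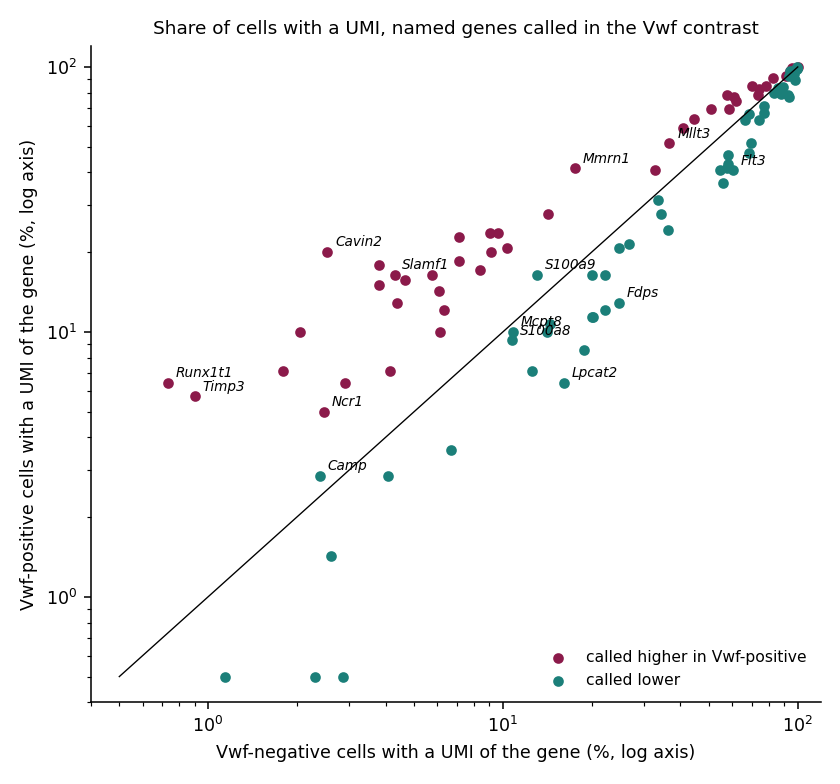
Percent of Vwf-positive cells (vertical) against percent of Vwf-negative cells (horizontal) with a UMI of each of the 100 named genes called in the Vwf contrast, log axes, shares under 0.5 drawn at 0.5. Red points were called higher and teal points lower. Over all called genes, drawn or not, 131 of 131 called higher had the greater share in Vwf-positive cells. Of those called lower, 167 of 189 had the smaller share there. The shares come from the counts that gave the calls and are no separate support.

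Markers of mature cells gave the largest of the named falls. S100a8, a calcium-binding protein of neutrophils, was at 0, 3.15 and 0 CPM in Vwf-positive cells of WT 1 to 3 and 26.8, 0 and 14.3 in Txnip-KO 1 to 3, and at 287, 6.64, 581, 260, 3.95 and 34.4 in the Vwf-negative cells. Vwf-positive sums were lower in 6 of 6 samples, but the Vwf-negative sums themselves ran from 3.95 to 581, and the top 1% of Vwf-negative cells held 94.8% of the UMIs. By share of cells, S100a8 was in 9.29% of Vwf-positive and 10.8% of Vwf-negative cells, and S100a9 in 16.4% and 13.1%. Of 8 neutrophil markers 6 fell, and without the marked doublets 0 of 5 testable ones did; S100a9 was then at 0.575 and Camp at 0.095, with the sign turned. The basophil proteases Prss34 (-3.66) and Mcpt8 (-2.05) had 89.1% and 75.7% of their Vwf-negative UMIs in the top 1% of cells, and Mcpt8 was in 10.0% and 10.8% of cells. The sums were thus carried by few barcodes. Ltf, Ngp and Lcn2 of the neutrophil list, and Ly86 and Siglech below, passed the filter only with Vwf-negative sums; without it 6 of 9 neutrophil and 4 of 10 monocyte and dendritic cell markers fell. Of 10 monocyte and dendritic cell markers 3 fell, Irf8, Ly86 and Siglech, these last 2 with 0 UMIs in the Vwf-positive class and 69.0% and 98.1% of their Vwf-negative UMIs in the top 1% of cells. Siglech was not called without WT 3 or Txnip-KO 1, and Ly86 and Irf8 not without the marked doublets.

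Endothelial cells are the other well-known source of Vwf. Of 13 endothelial markers, 5 had 0 UMIs in the 140 cells, among them Cdh5, Flt1 and Stab2, while Kdr gave 2, Plvap 1 and Cldn5 3. All Vwf-negative cells together gave 10 UMIs of Cdh5, 23 of Flt1 and 165 of Stab2. For transcripts as rare as Cdh5 and Flt1, 0 UMIs in 140 cells cannot tell the classes apart. Kdr was in 1.43% of Vwf-positive and 0.43% of Vwf-negative cells, Cldn5 in 2.14% and 0.88%, and Plvap in 0.71% and 1.18%. Emcn (39 UMIs), Tie1 (50), Pecam1 (118) and Egfl7 (217) made up most of the sum. Each was also found in the Vwf-negative cells: Emcn was in 25.0% of Vwf-positive and 22.3% of Vwf-negative cells, Tie1 in 28.6% and 19.4%, Pecam1 in 50.7% and 43.2%, and Egfl7 in 66.4% and 70.5%. The list's summed level was 211 to 279 CPM per sample in Vwf-positive and 225 to 313 in Vwf-negative cells, with 0 of 6 tested members called. None of the 10 stromal markers passed the filter on low counts (0). In the B cell list 0 of 4 tested members were called. Natural killer and T cell markers stood apart by genotype: their summed level in Vwf-positive cells was 157, 135 and 59.2 CPM in WT 1 to 3 and 627, 733 and 574 in Txnip-KO 1 to 3. Ncr1, Klrb1c and Il2rb were called higher and Nkg7 lower among the 9 tested; without barcodes holding at least 10 UMIs of these markers 0 were higher and 1 lower. Il2rb was not called without Txnip-KO 2 (0.05), Klrb1c without Txnip-KO 1 (1.08) or Txnip-KO 2 (0.49), Ncr1 without Txnip-KO 1 (1.32), Txnip-KO 2 (0.51) or Txnip-KO 3 (1.31), and Nkg7 without WT 2 (-0.37).

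Some genes of the cell cycle and of growth were lower in the Vwf-positive class. Of 29 S phase genes 5 fell and 0 rose, and 25 had negative values (median -0.37); Mcm5, of the replicative helicase, was at 39.1 against 76.7 CPM (-0.79), lower in 6 of 6 samples, and Hells at 49.9 against 87.0 (-0.69; not called without Txnip-KO 3, -0.55). The count of lower S phase genes was 2 with DESeq2 size factors, and 0 by the DESeq2 Wald test, by limma voom and in depth-matched cells; it was 9 without WT 1, 3 without WT 3 and 2 without Txnip-KO 3. Of 32 mitosis genes 2 fell, Kif20b and Top2a (-0.45). The latter was not called without WT 3 (-0.33), and Kif20b (-0.87) not without WT 1 (-0.71), Txnip-KO 1 (-0.78) or Txnip-KO 2 (-0.81). For mitosis the count was 0 by the Wald test, by voom and in depth-matched cells, 7 without WT 2, 4 without Txnip-KO 3 and 1 with any other sample left out. Pclaf, a clamp-associated factor of replication, fell by 1.38 in 6 of 6 samples. The share of cells with a UMI of the proliferation gene Mki67, thinned to equal depth, was 10.2% ± 7.16 in Vwf-positive and 13.6% ± 2.52 in Vwf-negative cells (SD, n = 6; exact sign-flip test, two-sided p = 0.312, higher in 2 of 6). Cdkn1c (p57), the inhibitor that holds stem cells in quiescence, was at 26.8 against 12.6 CPM (0.97, adjusted p = 0.0468 by edgeR, higher in 6 of 6 samples), the 1 member of the quiescence and G1 list (22 tested) that rose while Cdk4 and Cdk6 fell. Cdk4 (-0.35) was not called without WT 3 (-0.30), Txnip-KO 1 (-0.28), Txnip-KO 2 (-0.35) or Txnip-KO 3 (-0.34). Cdkn1c itself was not called without WT 2 (1.05), WT 3 (0.81), Txnip-KO 1 (0.96), Txnip-KO 2 (0.91) or Txnip-KO 3 (1.01).

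Ribosome biogenesis genes fell in 8 of 23 cases and rose in 0 (median -0.26), with nucleolin, Ncl, at 965 against 1241 CPM (-0.34) and fibrillarin, Fbl, at 136 against 193 (-0.45). With DESeq2 size factors, which moved the median of all tested genes by 0.05, the count was 3. In oxidative phosphorylation 5 of 74 fell and 0 rose, 69 of 74 being negative (median -0.17), with Ndufa4 at -0.39 and Cycs, cytochrome c, at -0.50. Of the 19 glycolytic genes 2 fell, Gapdh (-0.40) and Pgam1 (-0.59), and of 20 cholesterol synthesis genes 1 fell, Fdps (-0.90). With WT 2, WT 3 or any Txnip-KO sample left out, Fdps was not called (-0.75 to -0.92). Ribosomal protein genes (1 of 80 higher and 2 lower) and mitochondrially encoded genes (0 of 13) stayed near the median of all genes, at -0.02 and -0.02. No member of the antigen presentation (0 of 19) or immediate early (0 of 16) lists was called, Egr1 and Jund among the latter, which are known to rise when tissue is dissociated. In the depth-matched comparison, which drew equal numbers of both classes, 18 of 159 testable lower genes and 24 of 59 testable higher genes were still called, 159 and 58 keeping their direction.

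The share of Vwf-positive stem cells was compared between the genotypes with and without correction for depth. As counted, it was 1.77%, 3.20% and 1.71% in WT 1 to 3 and 3.17%, 2.46% and 2.48% in Txnip-KO 1 to 3, that is 2.23% ± 0.843 and 2.71% ± 0.403 (SD, n = 3 each; exact permutation test, two-sided p = 0.5). WT 2 lay at the level of the highest Txnip-KO sample. Txnip-KO cells were shallower, with medians of 8626.5 to 10444 UMIs against 11628 to 11922. Thinned to 5000 UMIs, the shares were 0.589%, 0.974% and 0.856% in WT and 1.29%, 1.27% and 1.77% in Txnip-KO, means 0.806% ± 0.197 and 1.44% ± 0.288. The groups then did not overlap, at the smallest p that 3 against 3 samples allow (exact permutation test, two-sided p = 0.1), on 65 cells in all. The intervals of WT 1, 0.161 to 1.501, and WT 3, 0.279 to 1.987, take in the pooled natural killer cell share of 0.297%. Thinned natural killer cells held Vwf in 0 of 598, 2 of 345 and 0 of 588 cases in WT 1 to 3. In Txnip-KO 1 to 3 they held it in 0 of 343, 3 of 253 and 2 of 229. As counted, the natural killer cells with Vwf were 0, 3 and 1 in WT and 1, 7 and 3 in Txnip-KO. Whether this background differed between the genotypes was not tested. Among cells of 5000 to 8000 UMIs 2 of 201 in WT and 32 of 1192 in Txnip-KO held Vwf (0.995% and 2.685%), and among those of 8000 to 12000 UMIs 23 of 823 and 29 of 1370 (2.795% and 2.117%). At 12000 to 20000 UMIs 15 of 707 and 26 of 750 held it (2.122% and 3.467%), and from 20000 UMIs 5 of 251 and 8 of 203 (1.992% and 3.941%). The share was higher in Txnip-KO in 3 of the 4 depth classes and lower in 1, and the exact binomial intervals of the genotypes overlapped in 4 of 4.

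**Figure D4:**
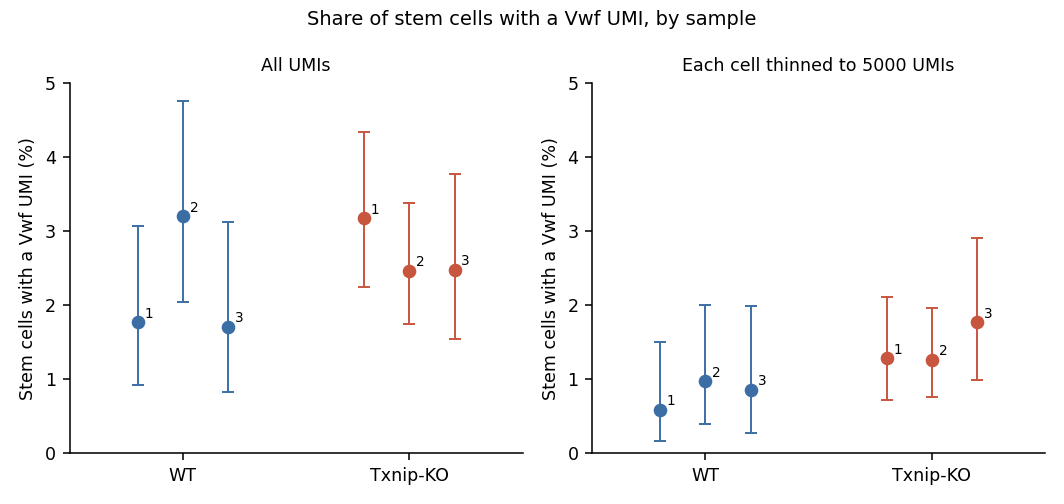
Percent of stem cells with a Vwf UMI in each sample, as counted and after thinning each cell to 5000 UMIs, with 95% exact binomial intervals that cover counting error only; WT blue, Txnip-KO red. As counted, the genotypes overlap between 1.71% and 3.20%; thinned, the WT samples lie at 0.589% to 0.974% and the Txnip-KO samples at 1.27% to 1.77%.

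Summed over stem cells, Vwf was at 1.93 ± 0.5 CPM in WT and 2.89 ± 0.218 in Txnip-KO (SD, n = 3 each), with 1.66, 2.51 and 1.63 CPM in WT 1 to 3 and 2.80, 3.14 and 2.73 in Txnip-KO 1 to 3. The samples did not overlap, but the log2 difference of 0.58 (SE 0.27) did not pass the test (adjusted p = 0.119 by edgeR), where 34% of 11897 genes did. Within the Vwf-positive cells, where Vwf is fixed at 1 UMI or more by the choice of cells, it was at 107 and 116 CPM.

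The contrast itself differed between the genotypes for 23 of 11351 genes (0.203%; edgeR, interaction of class and genotype), 22 of them with a higher value in Txnip-KO (0.194%) and 1 with a lower (0.00881%). Within WT 145 genes were called (1.28%; 0.502% of tested genes higher and 0.775% lower) and within Txnip-KO 98 (0.863%; 0.44% higher and 0.423% lower). Mpo was at 162, 126 and 29.6 CPM in the Vwf-positive and 503, 522 and 549 in the Vwf-negative cells of WT 1 to 3. In Txnip-KO 1 to 3 it was at 394, 391 and 359 against 366, 436 and 517. Vwf-positive cells of WT were below those of Txnip-KO in each pairing of samples, and the contrast was -2.14 in WT and -0.16 in Txnip-KO, a difference of 1.98 (SE 0.20, adjusted p = 6.24e-20 by edgeR). Ctsg was at -2.25 and -0.23 (difference 2.02). Its Vwf-positive counts in WT were 1, 40 and 1 UMIs, and the difference was 5.21 without WT 2. Robust edgeR, the DESeq2 Wald test and limma voom did not call the Ctsg difference. Plac8 had contrasts of -1.06 in WT and -0.37 in Txnip-KO (difference 0.69; not called without Txnip-KO 2, 0.65). The single gene with a negative difference, Txnip-KO minus WT, was Apoe, at 1.27 in WT and 0.43 in Txnip-KO (difference -0.85, adjusted p = 9.22e-05 by edgeR). Its Vwf-positive levels were 431, 513 and 651 CPM in WT and 477, 499 and 712 in Txnip-KO, which overlap, whereas the Vwf-negative levels were 229, 219 and 189 in WT and 333, 384 and 548 in Txnip-KO, which do not.

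Genes of natural killer and T cells were among the remainder. Ccl5, a chemokine of those cells, was at 11.2, 6.30 and 0 CPM in Vwf-positive cells of WT and 332, 199 and 215 in Txnip-KO, and at 80.9 to 182 in Vwf-negative cells (difference 4.73). Ms4a4b differed by 4.17, Gzma, granzyme A, by 3.6, and Cd52 by 2.05; Klrk1, Klrd1, Ncr1, Cd7 and Klrb1c were called too. Beside them stand the 6 Vwf-positive barcodes with natural killer and T cell transcripts, 6 of 6 from Txnip-KO. Without barcodes of at least 10 such UMIs 9 genes were called, with Mpo at 2.09, Ctsg at 2.11 and Apoe at -0.73, and Ccl5 was at 0.31 and Gzma at -1.045, neither called. Without the marked doublets 3 genes were called, Mpo (1.61), Ctsg (1.39) and Apoe (-0.79). After thinning 1 gene was called and Mpo was at 0.01; in the depth-matched cells Mpo was at 1.39 and not called (adjusted p = 0.317 by edgeR), and limma voom gave 2.11 (adjusted p = 0.116).

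**Figure D5:**
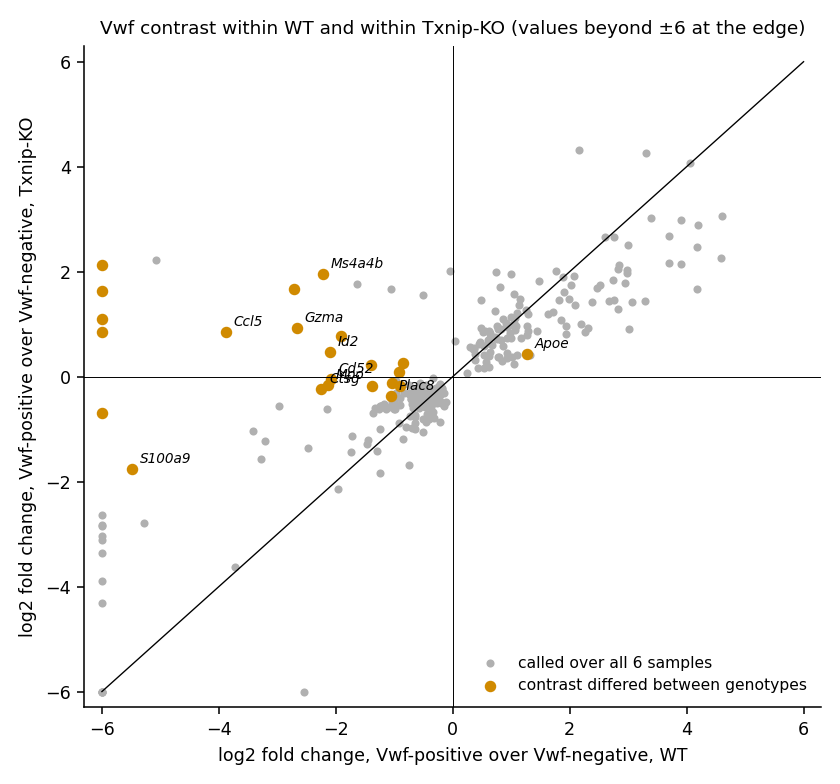
Log2 fold change of Vwf-positive over Vwf-negative cells within Txnip-KO (vertical) against that within WT (horizontal) for the 320 called genes (grey) and the 23 genes whose contrast differed between the genotypes (orange), values beyond 6 drawn at the edge. Mpo, Ctsg and Ccl5 lie left of the diagonal, with contrasts of -2.14, -2.25 and -3.88 in WT and -0.16, -0.23 and 0.85 in Txnip-KO; Apoe lies right of it.

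For the genotypes compared within a class, CPM are scaled over the genes tested in that class, so levels are not comparable between the classes. Txnip came first as a check of the labels. In Vwf-positive cells it gave 84, 93 and 44 UMIs in WT 1 to 3 and 3, 6 and 0 in Txnip-KO 1 to 3, or 462 ± 121 and 7.24 ± 7.37 CPM (SD, n = 3 each; log2 fold change -5.58), and in Vwf-negative cells 302 ± 71.2 and 9.12 ± 7.89 CPM (-4.93). In Vwf-positive cells 64 of 4066 tested genes differed (1.57%; 44 higher and 20 lower in Txnip-KO), and 24.2% of tested genes had no overlap between the groups. In the far more numerous Vwf-negative cells 3976 of 11881 differed (33.5%), and 47.2% did not overlap. The Vwf-positive count ran from 20, without WT 2 or Txnip-KO 2, to 255 without WT 3. Lars2, the mitochondrial leucyl-tRNA synthetase, was at 448, 375 and 577 CPM in WT and 175, 85.9 and 121 in Txnip-KO (-1.79), and at -1.99 in the Vwf-negative cells. Acot1, an acyl-CoA thioesterase, rose by 2.50, from 17.9 ± 7.10 to 97.5 ± 44.6 CPM (SD, n = 3), and by 1.56 in Vwf-negative cells; it was not called without WT 2 (2.07). Arrdc4, the arrestin most like Txnip, rose by 2.49 and by 2.32, Ccl9, a chemokine, by 2.43 and 0.94, and the ketone body enzyme Oxct1 was at -1.64 and -2.01. In the Vwf-positive class Arrdc4 was not called without WT 1 (2.27), WT 2 (2.12), Txnip-KO 2 (2.56) or Txnip-KO 3 (2.40), Ccl9 not without Txnip-KO 1 (2.19), and Oxct1 not without WT 1 (-1.43), WT 2 (-1.70) or Txnip-KO 2 (-1.66). Hpf1, a cofactor of PARP enzymes, was at -1.44 and -0.53 in the classes, and in the Vwf-positive class not called without WT 2 (-1.38) or Txnip-KO 2 (-1.26). None of these 6 genes was among the 23 whose contrast differed by genotype. Ccl5 (5.16), Ms4a4b (4.08) and Gzma (3.62) gave the largest rises, and after removal of the marked doublets or of barcodes with natural killer and T cell transcripts they were too low to test.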

How the data were processed

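Single-cell 3' libraries (10x Genomics chemistry 3.1) were made from sorted bone marrow of 3 WT and 3 Txnip-KO samples, per the labels. The values used are the UMI counts per gene and barcode that the authors deposited; the submitters' processing notes name CASAVA 1.8, Cell Ranger 6.1.1 and Seurat 2.3.4, but the build is not given in the sources used. Of 31253 features, 31107 matched GENCODE M21 (GRCm38) by identifier. Members, gene lists and tests were chosen with earlier results of these data known, so no list is independent evidence.

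Counts of the cells of a class were summed per sample and fitted with edgeR 4.0.16 (R 4.3.3; filterByExpr, TMM, quasi-likelihood test, Benjamini-Hochberg adjusted p under 0.05) over all genes, with a term for each sample in the Vwf contrast and its interaction with genotype, and with genotype alone within a class. The genes of the gate (Vwf, Hlf, Mecom, Procr, Pf4, Car1) stand outside the counts of tested genes. Shares were compared by exact permutation or sign-flip tests. Scripts were tested on simulated data. Doublets were marked with Scrublet in scanpy 1.11.5, the top 0.8% per 1000 barcodes in each sample, and kept in the main fits. For shares, each cell was thinned to 5000 UMIs. Natural killer and B cells for the background share were picked by marker UMIs. Tried as alternatives were the Wald test and the size factors of DESeq2 1.42.0, fits of unfiltered genes, thinned cells, no marked doublets, each sample left out, Vwf of at least 2 UMIs, depth-matched cells (bins of 1000 UMIs), no sample term, Pf4 of 0, and, chosen after seeing the data, limma 3.58.1 voom, robust edgeR and leaving out barcodes with 10 or more natural killer or T cell marker UMIs.

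Named genes are the 14 largest called rises and 14 largest called falls among genes averaging 10 CPM or more with the same sign in 6 of 6 samples (predicted genes and genes of the gate left out), up to 8 members per stem cell, platelet, lymphoid and progenitor list and up to 4 of the other lists by p, the 10 interaction genes with the smallest p, and within a class Txnip and the 6 largest rises and falls without overlap. Genes outside this rule (Klrk1, Klrd1, Cd7, Vldlr, Ltf, Ngp, Lcn2, Elane, and markers given by UMIs) were chosen after their values were seen. Samples of WT and Txnip-KO share the numbers 1 to 3. Deviations of same-numbered samples from their group means correlated at 0.261, 0.366 and 0.104 in Vwf-negative cells, which pairs them by the rule of every correlation over 0.1. Differently numbered samples ran from -0.33 to 0.102 there, so the value for number 3 does not stand apart. In Vwf-positive cells same-numbered samples correlated at 0.033, 0.020 and 0.109, which does not pair them. The main genotype fits hold no term for the number, and fits with it are given as the replicate block. Identities and promoters came from GENCODE and RefSeq. A few genes of the lists are counted but not reported here by name.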

Additional observations from a re-analysis of the deposited data

Results flagged for a closer look

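The contrast of Vwf-positive with Vwf-negative cells differed between Txnip-KO and WT, by the interaction test of edgeR, for 23 genes. Among them the log2 difference, Txnip-KO minus WT, was 4.73 for Ccl5, 4.17 for Ms4a4b and 3.6 for Gzma, which natural killer and T cells express, 2.05 for Cd52 and 2.57 for Id2. It was 1.98 for Mpo, 2.02 for Ctsg, 3.73 for S100a9 and 0.69 for Plac8, and -0.85 for Apoe. Id2 was not called without WT 1 (1.90) or Txnip-KO 2 (1.45), and Plac8 not without Txnip-KO 2 (0.65). Vwf-positive barcodes with 55 to 107 natural killer and T cell marker UMIs were 0 in WT and 6 in Txnip-KO; without barcodes of this kind 9 genes differed.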

How the results depend on the processing

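The Vwf contrast, 320 genes, called 131 by the DESeq2 Wald test, 79 with at least 2 Vwf UMIs, 51 with depth-matched cells and 27 without the sample term, and 238 to 347 with 1 sample left out. The higher and lower counts were 131 and 189 in the main analysis, 164 and 110 with DESeq2 size factors, 96 and 35 by the Wald test, 135 and 297 without the filter, 57 and 214 after thinning and 298 and 43 by limma voom. Thinning moved the median of all genes by -0.23 and the threshold of 2 Vwf UMIs by -0.44, so falls under these settings are read against that shift. Of 100 named calls in the contrast, 57 were kept without any 1 sample.

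The 23 interaction calls became 3 by the Wald test, 1 after thinning, 3 without marked doublets, 0 with at least 2 Vwf UMIs, 0 with depth-matched cells, 2 by voom and 9 without barcodes with natural killer or T cell UMIs (11 to 24 with 1 sample left out; 11 without Txnip-KO 2); 560 genes had an unadjusted p under 0.05. In Vwf-positive cells the 64 genotype calls became 29 by the Wald test, 162 without the filter, 3 after thinning, 37 without doublets, 1 with at least 2 Vwf UMIs, 99 with robust edgeR and 42 without natural killer or T cell barcodes (20 to 255 with 1 sample left out). In Vwf-negative cells the 3976 calls became 10 with depth-matched cells, where far fewer cells enter, and ran from 2490 to 4351 with 1 sample left out. Apart from those constructions the causes were not tested.

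Signs turned for S100a9 (0.575) and Camp (0.095) without doublets; for Rgs18 (-0.253), Ifitm1 (-0.204), Ifitm3 (-0.041), Car2 (-0.361) and Rpl21 (-0.152) with at least 2 Vwf UMIs; for Il2rb (-0.019) and Rpl21 (-0.031) after thinning and Il2rb (-0.278) with depth-matched cells. In the interaction they turned for Ctsg (-0.145) after thinning, Gzma (-0.861) without doublets, and Gzma (-1.045) and Id2 (-1.033) without natural killer or T cell barcodes. The difference in Vwf-positive share ran from 0.469 to 0.723 percentage points, that in Mki67 share from -5.361 to -1.336, and the Vwf level difference from 0.479 to 0.826 with 1 sample left out, none called. With the replicate block, the genotype calls were 87 in Vwf-positive and 4322 in Vwf-negative cells, the interaction calls 22 and the Vwf level difference 0.579; the paired share difference was 0.635 (exact sign-flip test, two-sided p = 0.25, the smallest 3 pairs allow). In all stem cells it gave 4383 genotype calls against 4041. Of 36 named genotype and interaction results fitted with the block, 36 kept their direction and their side of the threshold. Depth limits the Vwf-positive class most: its sums hold 99020 to 457626 UMIs.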
